A study of Rattus norvegicus with 22 samples.

Results

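Genes whose names begin with Nduf encode the nuclear subunits and assembly factors of complex I, the NADH dehydrogenase of the respiratory chain. They were selected here from a table of 32623 genes as the 48 rows with such a name, of which 45 had at least 10 counts in 5 or more of the fat libraries and 43 had at least 10 counts in 6 or more of the muscle libraries. All 43 measured in muscle were also measured in fat. The libraries came from male Sprague Dawley rats made obese by 8 weeks of high-fat feed from 3 weeks of age, with 10 libraries from epididymal adipose tissue and 12 from gastrocnemius muscle. The hypoxia exercise groups (FHE, 2 fat libraries; MHE, 3 muscle libraries) breathed air of reduced oxygen content and ran on a treadmill at 20 m/min. The hypoxic quiet groups (FH, 2; MH, 3) breathed the same air without running. The normoxia exercise groups (FCE, 3; MCE, 3) breathed 21% oxygen and ran at 25 m/min, and the normoxia quiet groups (FC, 3; MC, 3) breathed 21% oxygen without running. Running lasted 1 h per session with 5 sessions per week for 4 weeks. HE and CE rats differed in speed as well as oxygen, so oxygen and speed cannot be told apart in that comparison. The same holds for the interaction of running and hypoxia, in either tissue. The study's methods count as many sequenced rats as there are libraries, which would give each library a rat of its own. The labels do not tie a fat library to a muscle library.

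Complex I takes electrons from NADH and passes them through a flavin and a chain of iron-sulfur clusters to ubiquinone, and pumps protons across the inner mitochondrial membrane. Its core subunits in the matrix arm are encoded in the nucleus and its core subunits in the membrane arm by the mitochondrial genome, while accessory subunits wrap both arms and assembly factors build the complex without staying in it. Skeletal muscle fibres and adipocytes both use it, muscle for contraction and adipocytes for lipid synthesis and turnover. By role, the 43 genes measured in both tissues were 7 core and 8 accessory subunits of the matrix arm, 18 accessory subunits of the membrane arm, the acyl carrier protein Ndufab1 that sits in both arms, 7 assembly factors, and Ndufa4 and Ndufa4l2. Ndufa4 carries the name but is known as a subunit of cytochrome c oxidase, and Ndufa4l2 is its paralog.

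The names were checked against RefSeq, and 3 rows lay on another chromosome than the RefSeq gene of that name. The row named Ndufa13 covered 429 bases of chromosome 7 (chr7:36826360-36826788 in the coordinates of the files), whereas RefSeq places Ndufa13 on chromosome 16, and a second row named Ndufv3 covered 327 bases of chromosome 13. Both were measured in fat, at 0.681 to 2.69 and 1.42 to 3.995 nuclear CPM, and are counted among the 45 as copies. The row named Ndufs6, on chromosome 2, and the rows Ndufa10l1 and Ndufb4l1 did not reach the minimum in either tissue, with totals of 48, 113 and 4 counts over the 22 libraries. Of the 113 counts of Ndufa10l1, 85 were in FHE2. RefSeq lists at least 1 pseudogene of the same name for 18 of the 43 genes, among them 7 for Ndufb4, 5 for Ndufaf4 and 4 for Ndufa5. How reads that fit a gene and its copies were counted is not given in the sources used here, so the levels of these genes are uncertain to that extent.

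Promoter sequences are shown for the genes that carried a match to a binding motif of NRF1, a transcription factor known to drive nuclear genes of the respiratory chain, or to the hypoxia response element bound by HIF. RefSeq windows of 300 bases, 250 before and 50 after the start in build GRCr8, were found for 39 of the 43 genes. The NRF1 core GCGCATGCG, searched on both strands, was in 3 of the 39 windows and in 1.52% of all 33469 windows. In each of those 3 windows the match overlapped its own reverse complement. The element TACGTG was in 1 of 39, against 3.49% of all windows. AAGATGGCG, a motif of YY1, was in 6 of 39 (Ndufb8, Ndufs4, Ndufa9, Ndufs7, Ndufa6 and Ndufa2), in each case 5 to 27 bases into the transcript, against 1.73% of all windows, and TCAAGGTCA, the site of estrogen-related receptors, was in 0 of 39 against 0.433%. The upstream stretches follow, 5′ to 3′ on the gene's strand, with the motif in capitals. They belong to the assembly factors Ndufaf5 (chr3:147961547-147961611, plus strand) and Ndufaf4 (chr5:43401587-43401695, plus), the membrane arm subunit Ndufa11 (chr9:1637467-1637575, plus) and the matrix arm subunit Ndufa5 (chr4:53971236-53971341, minus).
Ndufaf5, NRF1 core: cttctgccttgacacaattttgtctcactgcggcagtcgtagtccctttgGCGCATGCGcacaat
Ndufaf4, NRF1 core: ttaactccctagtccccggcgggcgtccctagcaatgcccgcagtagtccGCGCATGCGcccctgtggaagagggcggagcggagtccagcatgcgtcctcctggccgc
Ndufa11, NRF1 core: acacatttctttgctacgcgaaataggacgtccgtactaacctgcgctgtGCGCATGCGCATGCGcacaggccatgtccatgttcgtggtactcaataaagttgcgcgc
Ndufa5, hypoxia response element: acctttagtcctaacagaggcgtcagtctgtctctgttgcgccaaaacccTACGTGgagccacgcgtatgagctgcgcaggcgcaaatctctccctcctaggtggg
The first base of the match lay 15 and 158 bases before the start in Ndufaf5 and Ndufaf4, and 56 bases before it in Ndufa5. Ndufa11 held 2 overlapping copies of the NRF1 core, which began 97 and 91 bases before the start and are both in the capitals. A match describes letters in the window and was not tested as a binding site. Of the genes printed, Ndufaf5 and Ndufaf4, with the NRF1 core, and Ndufa5, with the hypoxia response element, were among the 5 genes with the largest muscle excess described below. Ndufa11, also with the NRF1 core, had a log2 fold change of -0.07 between muscle and fat. A link between a match and the tissue difference was not tested, and the genes with the YY1 motif are not included here.

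Levels are given as CPM of nuclear counts, that is, counts scaled to a total of 1000000 over the genes outside the mitochondrial genome, because genes of the mitochondrial genome held 89.4% to 97.4% of a muscle library and 10.1% to 44.7% of a fat library. Total counts per library were 27149905 to 43834953 in muscle and 31449793 to 44334313 in fat, but nuclear counts were 841153 to 4334813 in muscle and 20060028 to 36162561 in fat. One count was therefore worth 0.231 to 1.19 nuclear CPM in muscle and 0.0277 to 0.0499 in fat. Acta1, the skeletal alpha-actin, was at 17981 to 44367 nuclear CPM in muscle, and Adipoq, the adipocyte hormone adiponectin, at 5000 to 15059 in fat, as the tissue labels have it. Some fat libraries stood apart. FHE3 had 7031 and FCE2 had 550 nuclear CPM of Acta1, against at most 24.1 in the other fat libraries, and 31940 and 1745 summed over the 13 skeletal muscle fibre markers in the table. FH3 had the lowest summed level of the 12 adipocyte markers, 26560 nuclear CPM against 44181 to 64187 in the other fat libraries. Its sums over 9 mesothelial, 8 macrophage and 7 T cell markers, 1023, 3565 and 377 nuclear CPM, were the highest in fat, where FH1 had 156, 2002 and 132. Ucp1, which defines brown adipocytes, had 0 counts in every library. In bulk tissue, fewer cells of a type and less RNA per cell cannot be told apart.

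The summed level of the 43 genes was of the same order in both tissues. It was 3476 to 6021 nuclear CPM in the 12 muscle libraries (median 4455) and 2380 to 5569 in the 10 fat libraries (median 4547). FH3 had the 2380, and the 9 other fat libraries lay between 3534 and 5569. By group, the sums were 4233, 3779 and 4001 in MHE, 4894, 4677 and 3476 in MH, 4014, 6021 and 4843 in MCE, and 4801, 5590 and 4124 in MC. In fat they were 5569 and 4604 in FHE, 4657 and 2380 in FH, 5434, 4468 and 4490 in FCE, and 5187, 4250 and 3534 in FC. The ranges of compared groups overlapped in every comparison. MHE and MCE overlapped only in that 4233 in MHE lay above 4014 in MCE, and the FHE libraries lay on either side of FH1 at 4657.

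**Figure D1:**
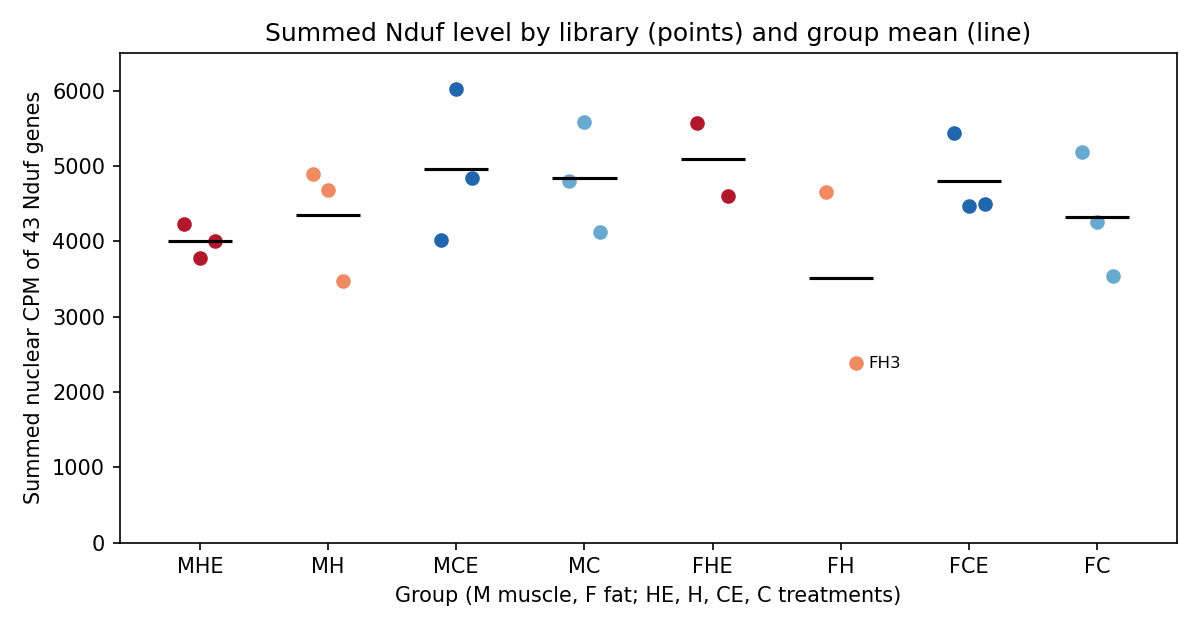
Summed nuclear CPM of the 43 Nduf genes (vertical axis) in each of 22 libraries (points), by group (horizontal axis), with the group mean as a line. FH3, at 2380, lies below the other fat libraries, which sit between 3534 and 5569, and muscle libraries lie between 3476 and 6021.

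Compared per length, as TPM rescaled to the nuclear genes, subunits were far more abundant than assembly factors in both tissues. The 18 membrane arm subunits had mean levels of 61.0 (Ndufa1) to 520 TPM (Ndufb4) in muscle and 79.5 (Ndufc1) to 634 TPM (Ndufb4) in fat. The 7 assembly factors spanned 5.65 (Ndufaf1) to 35.5 TPM (Ndufaf5) in muscle and 7.19 (Ndufaf4) to 28.5 TPM (Ndufaf3) in fat, below every subunit. Ndufab1, which also serves mitochondrial fatty acid synthesis, had the lowest mean of the 34 subunits, at 47.4 ± 12.4 TPM in muscle and 51.3 ± 9.36 TPM in fat (SD, n = 12 and 10). The highest means in muscle were those of Ndufb4 (520 ± 104 TPM), Ndufv2 (432 ± 87.9), Ndufb9 (351 ± 120), Ndufa4 (349 ± 68.7) and Ndufb10 (328 ± 52.6). In fat they were those of Ndufa4 (643 ± 137 TPM), Ndufb4 (634 ± 130), Ndufb8 (417 ± 85.4), Ndufc2 (370 ± 61.2) and Ndufa11 (368 ± 86.9). Neighbours in these orders differed by less than the larger of their SDs, except Ndufb4 and Ndufb8 in fat.

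Core subunits, which sit in 1 complex together, differed in transcript level. In muscle, Ndufv2, which holds an iron-sulfur cluster beside the flavin, had 432 ± 87.9 TPM, Ndufs7 235 ± 56.1, Ndufs3 189 ± 42.1, Ndufv1 127 ± 31.0, Ndufs8 127 ± 29.0 and Ndufs1 50.5 ± 15.5. In fat, Ndufv2 had 279 ± 41.1 TPM, Ndufv1 227 ± 48.6, Ndufs7 165 ± 39.9, Ndufs3 145 ± 31.4, Ndufs8 121 ± 20.7 and Ndufs1 75.2 ± 9.53. Ndufs1, which carries several of the iron-sulfur clusters, was the lowest of these in both tissues, and Ndufv1, which binds NADH and the flavin, ranked above Ndufs7 and Ndufs3 in fat and below them in muscle.

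**Figure D2:**
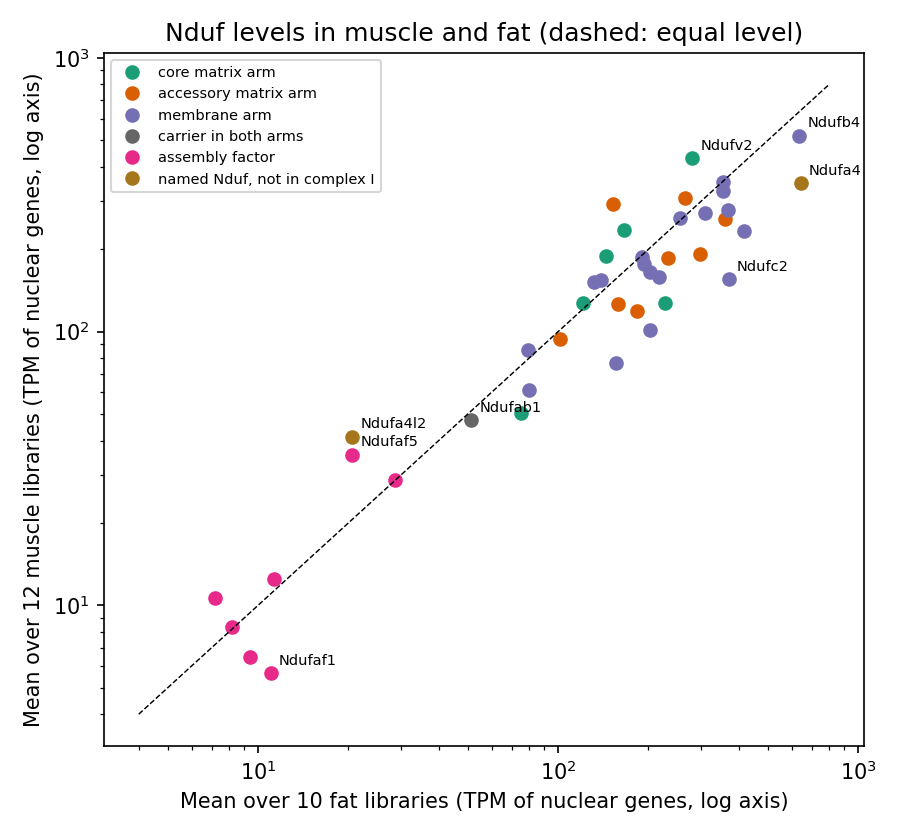
Mean TPM of nuclear genes over 12 muscle libraries (vertical, log axis) against the mean over 10 fat libraries (horizontal, log axis) for 42 Nduf genes, coloured by role, with equal levels on the dashed line. Assembly factors lie at 5.65 to 35.5 TPM in muscle and 7.19 to 28.5 TPM in fat, below all subunits.

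Muscle was set against fat in 1 fit of the 22 libraries, with treatment as a covariate. Of 43 genes, 12 were higher and 8 lower in muscle at an adjusted p under 0.05 (edgeR quasi-likelihood test, Benjamini-Hochberg over 13797 genes), where 26.2% of all genes were higher and 32.5% lower. The 12 of 43 were close to the share of all genes called higher, and the 8 of 43 were below the share called lower. The median log2 fold change was 0.20 over the 43 genes and -0.09 over all genes tested. With MC against FC alone, 5 were called higher (13.2% of all genes) and 2 lower (20.1% of all genes), and without a filter on low counts 7 were called higher (16.2% of all genes). Without FHE3 and FCE2, 9 were higher (24% of all genes) and 7 lower (30.5% of all genes).

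Among the genes higher in muscle, Ndufa5, an accessory subunit of the matrix arm, had 85.6, 120 and 218 nuclear CPM (lowest, median and highest) in muscle, against 28.3, 49.4 and 104 in fat. Its log2 fold change was 1.27 ± 0.23 (SE), with an adjusted p of 6.45e-05. Only FHE2 in fat, at 104, reached into the muscle range. Ndufv2 had 235, 304 and 452 nuclear CPM in muscle, against 98.3, 160 and 223 in fat, so that no fat library reached the lowest muscle library (log2 fold change 0.97 ± 0.16, adjusted p = 3.27e-05). Ndufaf5, which hydroxylates an arginine of Ndufs7 during assembly, had 20.2, 32.4 and 51.3 in muscle, against 10.2, 14.3 and 22.5 in fat, with FHE2 and FCE3 reaching above the lowest muscle library (1.08 ± 0.18, adjusted p = 2.03e-05). Ndufaf4, a partner of Ndufaf3 in building the quinone-binding part, had 12.8, 26.1 and 43.2 in muscle, against 7.28, 14.9 and 20.3 in fat (0.94 ± 0.18, adjusted p = 0.000164). The ranges of Ndufaf4 overlapped. Ndufs7 and Ndufs3, both core subunits, rose by log2 fold changes of 0.77 ± 0.18 and 0.68 ± 0.20.

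Lower in muscle were Ndufc2, a membrane arm subunit, with 24.97, 70.1 and 110 nuclear CPM in muscle, against 74.0, 142 and 170 in fat. Its log2 fold change was -0.94 ± 0.20 (adjusted p = 0.000347), and of the fat libraries only FH3, at 74.0, and FC3, at 107, lay within the muscle range. Ndufa10, a membrane arm subunit with a nucleoside kinase fold, had 97.6, 114 and 204 in muscle, against 119, 211 and 246 in fat (-0.69 ± 0.15, adjusted p = 0.000649). Ndufb6 and Ndufv3 had log2 fold changes of -0.70 ± 0.19 and -0.64 ± 0.20. Ndufaf1, an assembly factor that joins Ecsit and Acad9 on the membrane arm, had -0.60 ± 0.33 and did not pass the test (adjusted p = 0.120). It had 0 counts in MHE2, which allows up to 1.03 nuclear CPM by counting error alone, and 6 to 44 counts in the other muscle libraries. By role, 4 of 7 core subunits were higher (Ndufv2, Ndufs7, Ndufs3, Ndufs8) and 2 lower. Of the 18 membrane arm subunits 2 were higher and 4 lower, and of the 7 assembly factors 3 were higher and 0 lower. Of all genes, 26.2% were higher and 32.5% lower. The roles are small sets, and a difference between them was not tested.

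**Figure D3:**
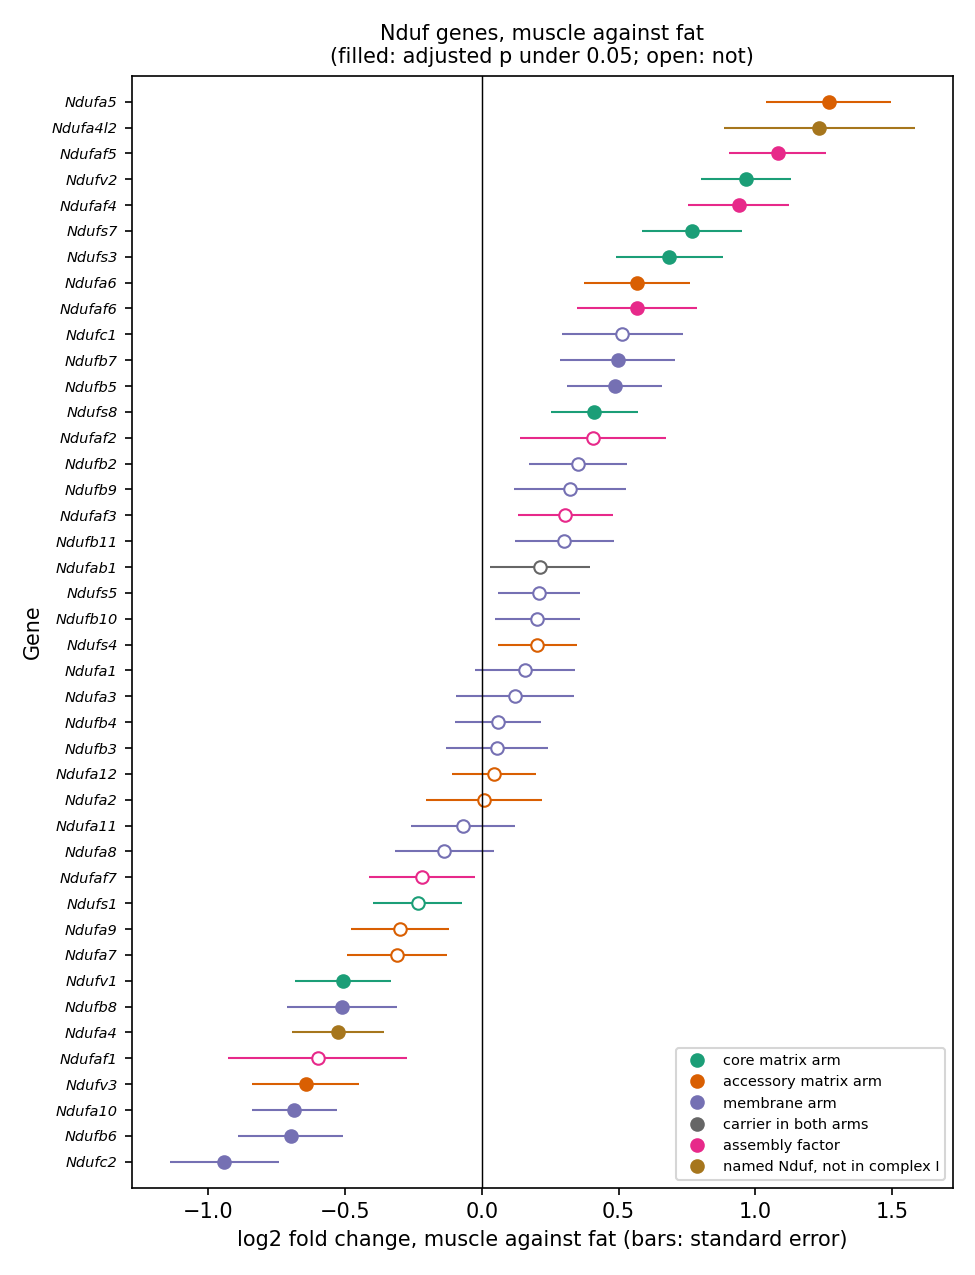
Log2 fold change of muscle against fat (horizontal axis) with its standard error (bars) for 42 Nduf genes (vertical axis), coloured by role. Filled points passed an adjusted p of 0.05, namely 12 above 0 and 7 below, from 1.27 for Ndufa5 to -0.94 for Ndufc2.

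Ndufa4 and Ndufa4l2 went opposite ways. Ndufa4 had 179, 215 and 319 nuclear CPM in muscle, against 161, 320 and 433 in fat (log2 fold change -0.53 ± 0.17, adjusted p = 0.0099). Ndufa4l2, known in human and mouse cells as a target of the hypoxia-inducible factor HIF-1, had 6.69, 20.2 and 87.4 in muscle, against 6.10, 12.8 and 18.1 in fat (1.23 ± 0.35, adjusted p = 0.00452). In MC against FC alone the adjusted p of Ndufa4l2 was 0.0528. Its coefficient of variation over muscle libraries, 75.6%, was the largest among the 43 genes in muscle. It was 17.2, 61.5 and 56.8 in MHE, against 20.8, 6.69 and 17.8 in MH, with 1 MHE library within the MH range, and the log2 fold change of 1.71 ± 0.72 had an unadjusted p of 0.0318 and did not pass after adjustment (adjusted p = 0.99999). In MH against MC it was -1.06 ± 0.73 (adjusted p = 0.756), with MC at 13.3, 45.5 and 31.2.

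Within fat, each comparison asked how oxygen or running was followed by a change of transcript level, and the comparisons share their libraries. Running at normal oxygen (FCE against FC) called 0 of 45 genes by edgeR at an adjusted p under 0.05, as for all genes (0%). DESeq2 also called 0 of the 45. Its share of all genes called is given for FHE against FH only, so its other counts have none beside them. At an unadjusted p under 0.05 by edgeR, 1 of 45 passed, against 5.04% of all genes. The median log2 fold change was 0.21 and 38 of 45 values were positive, against a median within 0.01 of 0 and 49.8% positive over all genes, and without FC3 the median was 0.02. The gene that passed was Ndufaf6, an assembly factor of the quinone-binding part, with 12.9, 9.68 and 12.2 nuclear CPM in FCE, against 6.83, 5.14 and 5.66 in FC. The 2 groups did not overlap, and the log2 fold change was 1.03 ± 0.30 (unadjusted p = 0.00736, adjusted p = 0.923, edgeR). Of the next genes by p, Ndufaf4 had 0.56 ± 0.30, Ndufaf5 0.45 ± 0.32 and Ndufa5 0.49 ± 0.35, each with adjusted p = 0.923. In FHE and FH, Ndufaf6 was at 6.93 and 7.46, and at 7.49 and 6.01, at or near the FC range, which reached 6.83. In FHE against FCE its log2 fold change was -0.73 ± 0.34 (adjusted p = 0.456).

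Hypoxia at rest (FH against FC) called 0 of 45 genes by edgeR and by DESeq2, again 0% of all genes by edgeR, and 0 of 45 had an unadjusted p under 0.05, against 4.75% of all genes. Its median of -0.41, with 43 of 45 values negative, rested on FH3. FH3 was the lowest of the 10 fat libraries for 38 of the 45 genes, as it was for 8.54% of all genes. The exceptions were Ndufc1 and the assembly factors Ndufaf1, Ndufaf2, Ndufaf4, Ndufaf5, Ndufaf6 and Ndufaf7. Without FH3 the median was 0.12, with 29 of 45 positive and 0 at an unadjusted p under 0.05 (3.05% of all genes), and without FH1 it was -1.32, with 36 of 45 at an unadjusted p under 0.05 (14.6% of all genes). A group left with 1 library was assumed to vary like the other groups. Mesothelial, macrophage and T cell markers were also higher and adipocyte markers lower in FH3, as given above. In the study's read statistics, FH3 had the lowest exonic and the highest intronic share of reads among the fat libraries. The part of these cells, or of the make-up of the reads, in the low Nduf level was not tested.

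The genes with the smallest p in FH against FC were subunits. Ndufc1, of the membrane arm, had 18.2 and 12.5 nuclear CPM in FH, against 23.9, 22.1 and 21.9 in FC (-0.71 ± 0.33). Ndufa4 had 267 and 161, against 431, 320 and 269 (-0.82 ± 0.40), and Ndufa12, which takes the place of Ndufaf2 when the matrix arm is finished, had 83.1 and 51.0, against 110, 115 and 83.7 (-0.77 ± 0.39). For these 3 genes both FH libraries lay below every FC library, with FH1 the closer, and none passed (unadjusted p = 0.0572, 0.0691 and 0.0796, edgeR). In all, both FH libraries lay below every FC library for 7 of 45 genes, against 4.91% of all genes. They lay above every FC library for 0 of 45, against 14.2% of all genes. Ndufs5 had -0.62 ± 0.32 (unadjusted p = 0.0816), with FH1 at 55.2 within the FC range.

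FH3 lay above the other fat libraries in the share of the assembly factors and just below them in that of the membrane arm subunits. Assembly factors made up 3.64% of the summed nuclear CPM of the 43 genes in FH3, against 1.88% to 2.57% in the other fat libraries, and membrane arm subunits 42.9%, against 43.4% to 45.8%. Core subunits made up 26.1%, against 22.6% to 27.1%. Ndufaf4 alone took 0.854% of the sum in FH3, where it was at 20.3 nuclear CPM, and 0.156% in FH1, where it was at 7.28.

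Running under hypoxia (FHE against FH) gave the largest median in fat, 0.70, with 43 of 45 values positive, against -0.07 over all genes. No member passed an adjusted p of 0.05 by edgeR (0 of 45, as 0% of all genes). At an unadjusted p under 0.05, 9 of 45 passed, all higher in FHE, where 16.8% of all genes passed in either direction. DESeq2 called 4 of 45 (Ndufaf2, Ndufa5, Ndufb3 and Ndufa6, adjusted p = 0.000780, 0.0258, 0.0232 and 0.0369), all higher in FHE, where it called 2.12% of all genes higher. Nuclear CPM did not overlap between FHE and FH for 18 of 45 genes higher in FHE, against 14.2% of all genes, and for 1 of 45 lower in FHE, against 28.9% of all genes. That gene was the assembly factor Ndufaf7, a methyltransferase, which had 13.2 and 13.7 in FHE, against 15.7 and 15.4 in FH. The median depended on FH3. Without FH3 it was 0.13, with 27 of 45 positive and 2 at an unadjusted p under 0.05 (10.5% of all genes), and without FH1 it was 1.59, with 40 at that level (23.8% of all genes). Without FHE3 and FCE2, the libraries with skeletal muscle transcripts, it was 0.77, with 4 at an unadjusted p under 0.05 (14.5% of all genes). Markers of other cell types also moved in this comparison. Mesothelial markers summed to 113 and 75.1 nuclear CPM in FHE2 and FHE3, against 156 and 1023 in FH1 and FH3. Macrophage markers summed to 1794 and 1107, against 2002 and 3565, and T cell markers to 58.9 and 51.5, against 132 and 377, so that both FH libraries were above both FHE libraries for all 3 lists. In FC and FCE the mesothelial sums were 14.2 to 48.0. The part of these cells in the change of the Nduf genes was not tested.

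Ndufaf2, the assembly factor that Ndufa12 replaces, had 8.87 and 9.89 nuclear CPM in FHE, against 3.46 and 3.90 in FH. The 6 FCE and FC libraries had 4.14 to 6.61, so both FHE libraries lay above the 8 others. Its log2 fold change was 1.56 ± 0.36 (unadjusted p = 0.00177, adjusted p = 0.202) and 1.44 without FH3 (adjusted p = 0.380), and 0.78 ± 0.32 in FHE against FCE (unadjusted p = 0.0360, adjusted p = 0.413). Ndufa5 had 104 and 81.1 in FHE, against 43.9 and 28.3 in FH, while FCE and FC ranged over 34.0 to 68.6. FHE2, with the higher Ndufa5, had 0.349 nuclear CPM of Acta1, and FHE3 had 7031. The log2 fold change of Ndufa5 was 1.51 ± 0.44 (adjusted p = 0.211), and 1.08 without FH3. Its share of the summed level, which does not change with the scaling of a library, was 1.87% and 1.76% in FHE, against 0.846% to 1.34% in the 8 other fat libraries.

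Ndufb3, a membrane arm subunit, had 178 and 129 in FHE, against 72.6 and 43.8 in FH (1.55 ± 0.45, adjusted p = 0.211, and 1.08 without FH3). Ndufa6, which binds the acyl carrier protein Ndufab1, had 150 and 122 in FHE, against 72.7 and 51.5 in FH (1.29 ± 0.40, adjusted p = 0.215, and 0.90 without FH3). For both, the FHE libraries were higher than all other fat libraries, where Ndufb3 ranged up to 121 and Ndufa6 up to 111. In FHE against FCE, 0 of 45 genes passed an adjusted p of 0.05 by edgeR (0% of all genes) or DESeq2, 1 passed an unadjusted p under 0.05 (11.4% of all genes), and the median was 0.02 with 24 of 45 positive. The ratio of summed levels changed sign with the scale there, a log2 ratio of 0.08 in nuclear CPM and -0.05 in nuclear TPM. In that comparison Ndufc1 had 18.9 and 12.1 in FHE, against 21.002, 20.97 and 25.5 in FCE (-0.58 ± 0.33, adjusted p = 0.534). The interaction asked whether running had another effect in hypoxia than in normoxia, and it also holds the difference in running speed. The interaction called 0 of 45 by either tool (0% of all genes by edgeR). At an unadjusted p under 0.05, 1 of 45 passed (Ndufaf2, 1.41 ± 0.46, adjusted p = 0.943), against 5.21% of all genes. Its median was 0.45, and -0.10 without FH3.

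**Figure D4:**
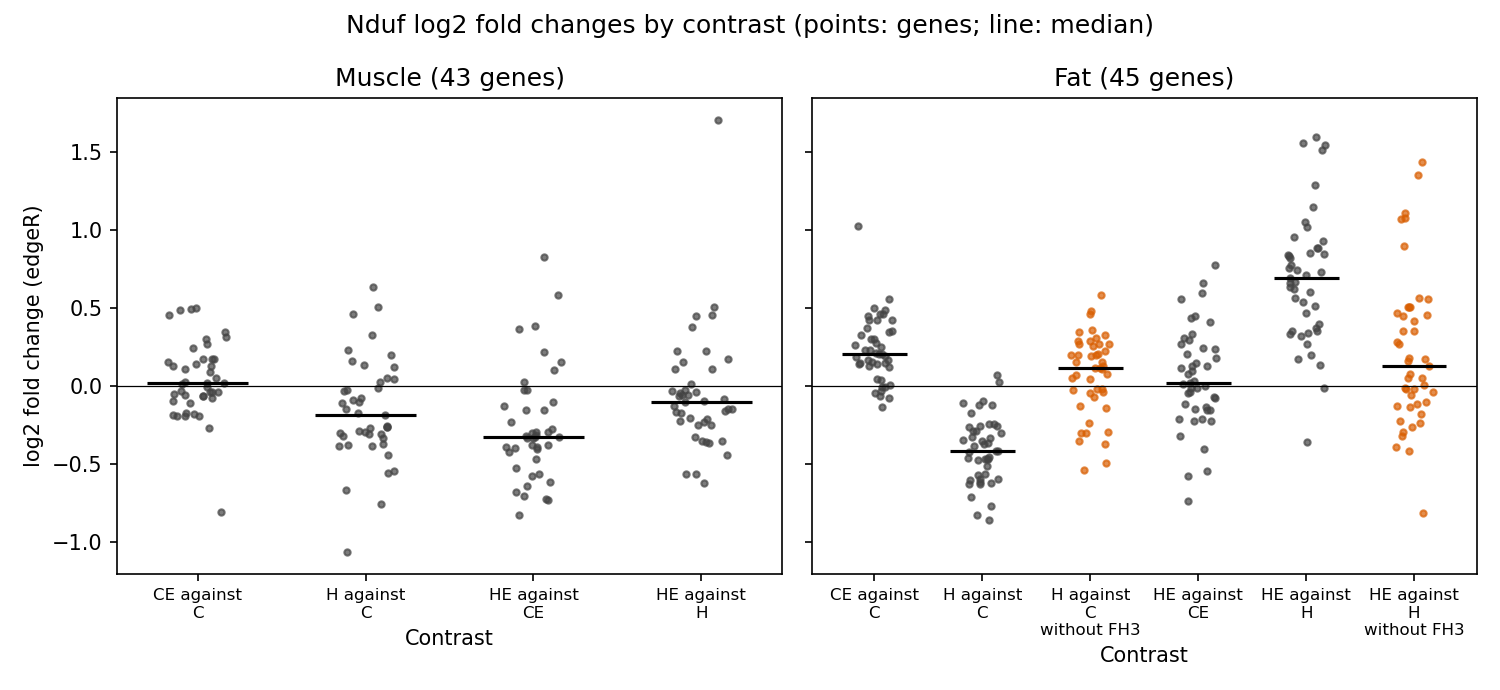
Log2 fold changes (vertical axis) of 43 genes in muscle and 45 in fat (points) with their median (line) for each comparison (horizontal axis), and in orange without FH3. In fat the median of H against C is -0.41 with FH3 and 0.12 without it, and that of HE against H is 0.70 with FH3 and 0.13 without it.

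In muscle no Nduf gene passed an adjusted p of 0.05 in any comparison of treatments, and the medians lay between -0.32 and 0.02. Running at normal oxygen (MCE against MC) called 0 of 43 genes by edgeR and DESeq2 (0.00805% of all genes by edgeR), 1 of 43 passed an unadjusted p under 0.05 (3.09% of all genes), and the median was 0.02, or -0.20 without MCE2. The 1 gene was Ndufaf5, with 27.5, 22.03 and 25.6 nuclear CPM in MCE, against 42.8, 51.3 and 38.1 in MC, so that the groups did not overlap. Its log2 fold change was -0.81 ± 0.26 (unadjusted p = 0.00856, adjusted p = 0.9998). Ndufs7, the core subunit that Ndufaf5 modifies, had 0.50 ± 0.25, and the subunits Ndufa7 and Ndufa3 had 0.45 ± 0.24 and 0.49 ± 0.34 (unadjusted p = 0.0649, 0.0844 and 0.165).

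Hypoxia at rest (MH against MC) called 0 of 43 by edgeR and DESeq2 (0.0403% of all genes by edgeR), and 4 of 43 passed an unadjusted p under 0.05, against 8.42% of all genes. Ndufs7 had 198, 258 and 206 nuclear CPM in MH, against 155, 162 and 105 in MC, with all MH libraries above all MC libraries (0.64 ± 0.25, adjusted p = 0.508). Ndufaf5 had 27.4, 33.9 and 20.2 in MH, below all 3 MC libraries (-0.67 ± 0.26, adjusted p = 0.508). Ndufaf4 had 12.8, 21.2 and 24.97 in MH, also below MC at 27.3, 38.7 and 32.1 (-0.76 ± 0.32, adjusted p = 0.544), and Ndufa12 had -0.55 ± 0.25. Nuclear CPM did not overlap for 1 of 43 genes higher in MH, against 8.20% of all genes, and for 4 of 43 lower, against 5.59%. The median over the 43 genes was -0.19, and -0.03 without MH3, the library with 841153 nuclear counts.

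Running under hypoxia against running at normal oxygen (MHE against MCE) had the largest median in muscle, -0.32, with 35 of 43 values negative, against 0.00 over all genes. It called 0 of 43 by either tool (0% of all genes by edgeR). At an unadjusted p under 0.05, 7 of 43 passed, 6 of them lower in MHE, against 3.58% of all genes, and nuclear CPM did not overlap for 7 of 43 lower in MHE, against 4.7% of all genes. Those 7 were Ndufa10, Ndufa2, Ndufa6, Ndufb4, Ndufb6, Ndufs1 and Ndufs5. Ndufaf5 was the 1 gene higher in MHE at an unadjusted p under 0.05. All 8 accessory matrix arm subunits, 6 of 7 core subunits and 16 of 18 membrane arm subunits had negative values, against 3 of 7 assembly factors. Without MCE2 the median was -0.12 with 13 of 43 positive, and 1 gene passed an unadjusted p under 0.05 (3.77% of all genes). MCE2 had the highest summed Nduf level in muscle, 6021, and the highest summed level of the 6 slow fibre markers, 3556 nuclear CPM, against 18.9 to 2037 in MHE and 52.6 and 649 in the other MCE libraries. The 4 erythroid markers in the table summed to 4131, 5339 and 2944 nuclear CPM in MHE, against 7197, 19492 and 10088 in MCE, with no overlap between the groups and MCE2 highest. The part of fibre type or blood in the difference was not tested.

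Ndufb6, a membrane arm subunit, had 37.1, 43.3 and 32.1 nuclear CPM in MHE, against 60.2, 60.6 and 67.6 in MCE. Every MHE library was well below every MCE library, and MC lay between, at 51.7, 51.3 and 48.9. The log2 fold change was -0.73 ± 0.23 (unadjusted p = 0.00600, adjusted p = 0.997) and -0.71 without MCE2. In MHE against MH, with MH at 71.2, 43.1 and 65.4, it was -0.62 ± 0.23 (unadjusted p = 0.0168). Ndufs1 had 66.8, 75.6 and 78.5 in MHE, against 101, 171 and 91.5 in MCE (-0.72 ± 0.32), and Ndufa10 had 102, 100 and 97.6, against 116, 204 and 144 (-0.64 ± 0.25). Ndufs5, a subunit on the intermembrane space side, had 68.4, 60.8 and 50.04 in MHE, against 70.5, 102 and 91.5 in MCE (-0.56 ± 0.23). All 3 had an adjusted p of 0.997. Without MCE2 the differences were -0.33 for Ndufs1, -0.33 for Ndufa10 and -0.39 for Ndufs5.

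Ndufaf5 stood out from the subunits in muscle. It had 43.8, 30.9 and 38.3 nuclear CPM in MHE, 27.4, 33.9 and 20.2 in MH, 27.5, 22.03 and 25.6 in MCE, and 42.8, 51.3 and 38.1 in MC. All MCE and MH libraries lay below the 3 MC libraries, while MHE overlapped with MC and with MH and lay above MCE. The interaction of running and hypoxia was 1.25 ± 0.37 (unadjusted p = 0.00458, adjusted p = 0.9999), and 1.10 to 1.51 with any 1 library left out. Over the 43 genes the interaction called 0 by either tool (0% of all genes by edgeR) and 2 at an unadjusted p under 0.05, Ndufaf5 and Ndufb6 (-0.93 ± 0.32), against 3.82% of all genes. MHE against MH called 0 of 43 by either tool (0.00805% of all genes by edgeR) and 2 at an unadjusted p under 0.05, Ndufb6 and Ndufa4l2, against 3.74% of all genes, with a median of -0.10. Ndufb5 had -0.56 ± 0.28 and Ndufa12 0.45 ± 0.25 there (unadjusted p = 0.0608 and 0.0944).

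**Figure D5:**
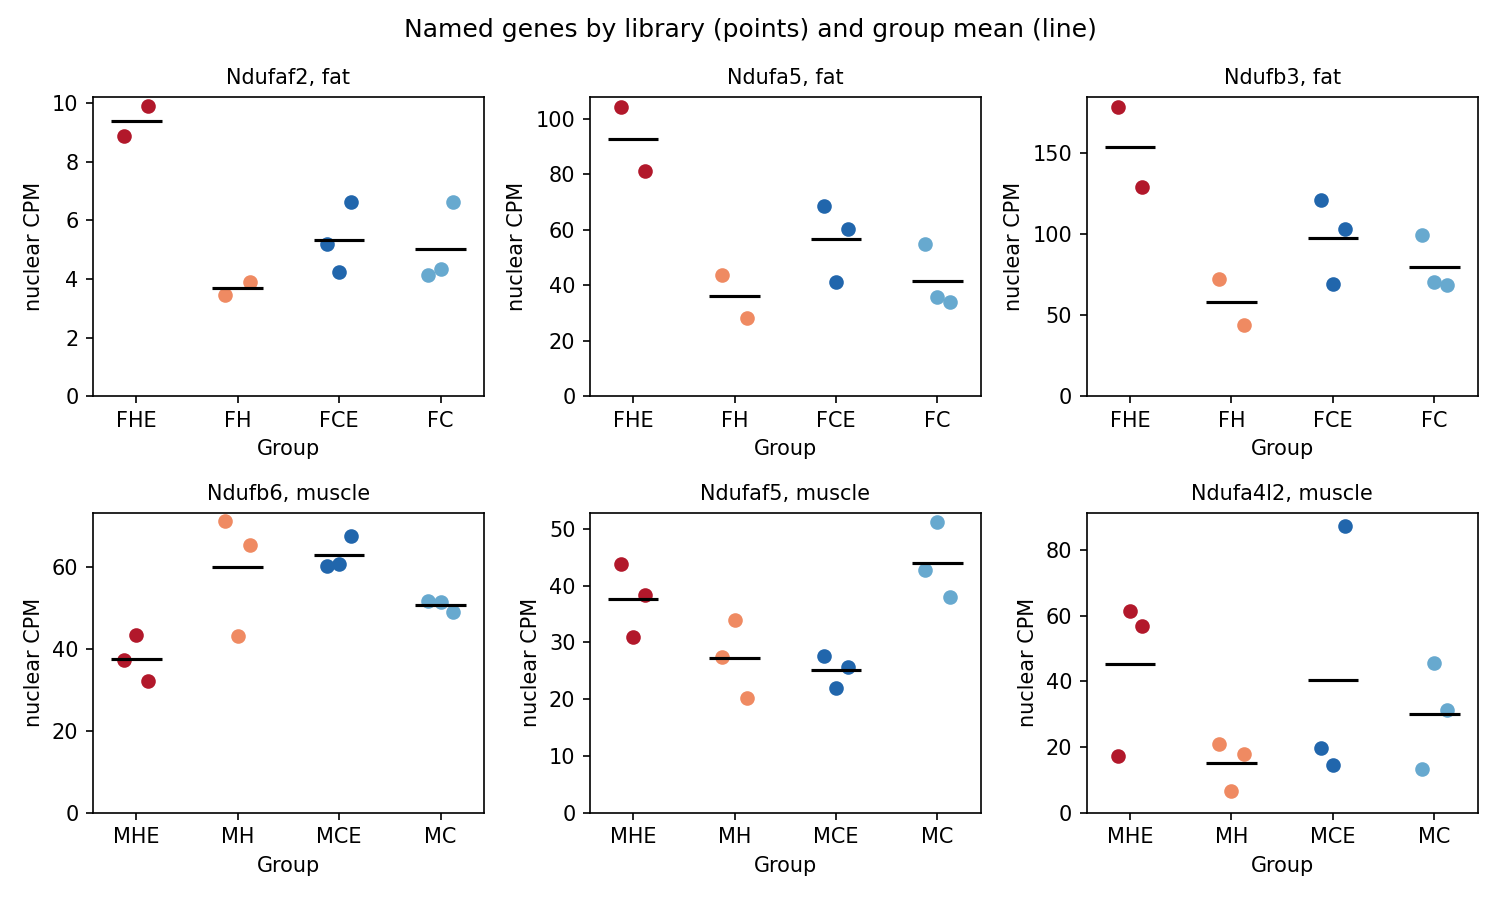
Nuclear CPM (vertical axes) of Ndufaf2, Ndufa5 and Ndufb3 in fat and of Ndufb6, Ndufaf5 and Ndufa4l2 in muscle, by group (horizontal axes), with libraries as points and group means as lines. Ndufa5 is at 104 and 81.1 in FHE and at most 68.6 in other fat libraries, and Ndufb6 is at 32.1 to 43.3 in MHE and 60.2 to 67.6 in MCE.

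The effects in fat and muscle were compared in 1 fit of 8 groups, as the fat effect minus the muscle effect. For HE against H, 0 of 43 genes passed an adjusted p of 0.05 by edgeR, and 11 of 43 passed an unadjusted p under 0.05, against 11.1% of 16528 genes. The median of the difference was 0.78, with 40 of 43 positive, against -0.02 over all genes. Ndufa5 had the smallest p, with a difference of 1.96 ± 0.55 on the log2 scale (adjusted p = 0.172), followed by Ndufa6 with 1.44 ± 0.48 (adjusted p = 0.265) and Ndufb3 with 1.44 ± 0.50 (adjusted p = 0.277). Without FH3 the median of the difference was 0.23, with 30 of 43 positive and 1 gene, Ndufa5 (1.53 ± 0.60, adjusted p = 0.522), at an unadjusted p under 0.05, against 7.68% of 17160 genes. The 3 other comparisons share libraries with this one, and 0 of 43 genes passed an adjusted p of 0.05 in any of them. For H against C the median of the difference was -0.25, with 10 of 43 positive and 0 at an unadjusted p under 0.05 (5.37% of all genes), and without FH3 it was 0.20, with 29 of 43 positive. For HE against CE it was 0.42, with 35 of 43 positive and 1 at an unadjusted p under 0.05 (7.52% of all genes). For CE against C it was 0.14, with 30 of 43 positive and 1 at that level (4.36% of all genes).

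The 7 complex I subunits encoded by the mitochondrial genome had a summed TPM of 407 to 2939 times that of the 43 nuclear genes in muscle and 4.63 to 38.6 times in fat. In fat the ratio was 28.6 and 38.6 in FHE2 and FHE3 and 4.63 to 13.1 in the 8 other libraries. All 7 mitochondrial genes had positive log2 fold changes in FHE against FH, with a median of 2.92 and a lowest adjusted p of 0.202 (edgeR). At an unadjusted p under 0.05, 7 of 7 passed, where 16.8% of all genes passed in either direction. Skeletal muscle fibre markers summed to 31940 nuclear CPM in FHE3 and 19.7 in FHE2, and the part of muscle transcripts was not tested. The same comparison over the 45 nuclear-encoded rows had the median of 0.70 given above, and 0.13 without FH3. The 7 mitochondrial genes were not read without FH3. In FHE against FCE, which compares no FH library, all 7 had positive values, with a median of 2.30 (lowest adjusted p = 0.217, edgeR). There 7 of 7 passed an unadjusted p under 0.05, against 11.4% of all genes. In MHE against MH the median over the 7 genes was -0.30.

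Assembly factors not named Nduf were read from a list of 10, of which 8 were tested. None of the 8 passed an adjusted p of 0.05 within a tissue by edgeR. The list's median was 0.12 in FHE against FH, 0.09 in FCE against FC, -0.18 in MHE against MCE and -0.24 in MH against MC. At an unadjusted p under 0.05 only Lyrm2, known to aid assembly of the matrix arm, passed, with 0.79 ± 0.31 in FHE against FH (adjusted p = 0.264) and -0.94 ± 0.38 in MH against MC (adjusted p = 0.521). In muscle against fat, 2 of 8 were called lower (adjusted p under 0.05, edgeR), where 32.5% of all genes were called lower. Foxred1, known from human patients as needed for complex I assembly, had a log2 fold change of -0.98 ± 0.21 (adjusted p = 0.000402). Acad9, the partner of Ndufaf1, had -0.53 ± 0.19 (adjusted p = 0.0239). Of the 8, 3 had positive values but 0 were called higher, against 26.2% of all genes.

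How alike the 43 genes varied is described by their pairwise correlations on log2(nuclear CPM + 1). Over the 10 fat libraries the median Pearson r of 903 pairs was 0.72, and 0.48 over the 9 without FH3. Over the 12 muscle libraries it was 0.39. The median r of members with all other tested genes was -0.25, -0.10 and -0.03 over the same libraries. These points share libraries, depth and tissue composition, and no test was run. Ndufaf4 and Ndufaf7 varied least with the rest over the 10 fat libraries, with mean r of -0.20 and -0.19, and this order rested on FH3. Over the 9 libraries without FH3 they had 0.07 and -0.07, and Ndufs1 and Ndufaf1 were lowest with -0.17 and -0.14. In muscle the lowest was Ndufaf7, with -0.22.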

How the data were processed

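RNA was measured in 10 epididymal fat and 12 gastrocnemius libraries. The authors filtered reads with FastQC and Trimmomatic, per the submitters' processing notes, prepared libraries with a stranded mRNA kit and aligned them with HISAT2 to Ensembl release 99; the counting program and its strand setting are not given in the sources used here. The deposited counts are whole numbers of reads per gene, left unnormalized. The deposited TPM were scaled by the authors by gene length within a library, and were rescaled here to the nuclear genes. The FPKM columns were not used.

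The genes of interest and the lists were chosen with earlier results of these data known. Counts were tested in R 4.3.3 with edgeR 4.0.16 (TMM, filterByExpr by group, quasi-likelihood F test, 1 mean per group, each tissue apart) over 16364 genes in fat and 12421 in muscle, and muscle was set against fat over 13797 genes with treatment as a covariate. A gene passed when its p, adjusted by Benjamini-Hochberg over all genes tested, was under 0.05; standard errors are the fold change divided by the root of F. Alternatives were DESeq2 1.42.0, nuclear genes only, no filter, a filter of 5 CPM in 2 libraries, a replicate block, each library left out, FHE3 and FCE2 left out, and, between tissues, normoxia quiet libraries only. The test of the fat effect minus the muscle effect, with and without FH3, was added after seeing the data. The steps were tested on simulated data. Genes were named as the 4 with the smallest p per comparison, the 5 with the largest change each way between tissues, the 5 of highest TPM per tissue, the core subunits (1 of them is not reported here and is left out of the plots of single genes), Ndufa4, Ndufa4l2 and Ndufab1; others were chosen after their values were seen. Summaries used Python 3.11.15, numpy 2.4.6, pandas 2.3.3 and matplotlib 3.10.9. Promoters are RefSeq's, build GRCr8.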

Additional observations from a re-analysis of the deposited data

How the results depend on the processing

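Of the counts and medians over the genes, 126 of 131 values under other tools, filters, scalings and blocks, and 280 of 288 with 1 library left out, stayed within 1.5 times the main count or 1 SD of the main median. These are wide bounds. Within a tissue the number called was 0 with any 1 library left out, and the within-group SD was 0.37 in fat and 0.25 in muscle. The median of MHE against MCE, which ranged from -0.49 to -0.12 with 1 library left out, counts as having stayed. The number called in FHE against FH was 4 with DESeq2. In muscle against fat, 7 were higher in muscle with no filter, and 5 higher and 2 lower with normoxia quiet libraries only; the last uses fewer samples, and the cause of the first was not tested. With no filter the median over all genes in muscle against fat was -0.40 and with DESeq2 0.32, against -0.09, over different sets of genes, while the members' medians were 0.10, 0.21 and 0.20. The check of the replicate numbers did not settle whether same-numbered libraries are paired. A correlation above 0.1 was seen in 7 of 12 same-numbered pairs in fat, 3 of 18 in muscle and 5 of 10 between the tissues. Among differently numbered pairs it was seen in 5 of 25, 6 of 36 and 2 of 20. Between the tissues the median correlation was 0.12 for same-numbered and -0.07 for differently numbered pairs. The main fits took no libraries as paired. With a replicate block the median in FHE against FH was 1.13, and 10 genes were higher and 8 lower in muscle than in fat. The shares of all genes called with the block are not given here. Without the block they were 26.2% higher and 32.5% lower. With 1 library left out, the median of FH against FC ranged between -1.32 and 0.12, that of FHE against FH between 0.13 and 1.59 and that of the interaction in fat between -0.10 and 1.35; the median of the fat effect minus the muscle effect was 0.23 for HE against H and 0.20 for H against C without FH3. Of single genes, Ndufaf2, Ndufa5, Ndufb3 and Ndufa6 in FHE against FH passed with DESeq2, and Ndufb6, Ndufv3 and Ndufa4l2 in muscle against fat did not pass in normoxia quiet libraries alone. With a minimum of 20 counts, 45 Nduf rows in fat and 41 in muscle were measured. One count was worth up to 1.19 nuclear CPM in muscle, which limits the precision of the assembly factors there; whether depth or group size limited the number of calls was not tested.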
